A study of Mus musculus with 6 samples.

Results

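Plasmacytoid dendritic cell genes were followed in CD11b+ cells of the mouse spleen. The 7 genes Siglech, Ccr9, Pacsin1, Tcf4, Spib, Runx2 and Bcl11a were taken by symbol from a table of 55335 genes, and all 7 passed the filter on low counts that left 14849 genes to test. RNA sequencing was run on cells sorted by flow cytometry for CD11b, the integrin chain that neutrophils, monocytes, macrophages and some dendritic cells carry. The 6 libraries came from wild-type mice with myocardial infarction and renal denervation, the removal of the nerves to the kidney (MI+RDN, n = 3), and from wild-type mice with myocardial infarction alone (MI, n = 3). Both groups thus carried an infarct, and the labels give neither the time after it, the age nor the strain, nor the number of mice behind a replicate. Totals ranged from 24634555 to 28013900 counts in MI+RDN and from 21663440 to 24677865 counts in MI.

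Plasmacytoid dendritic cells sense viral nucleic acids with endosomal Toll-like receptors and are known for making large amounts of type I interferon. Their fate rests on the E protein Tcf4, also called E2-2, which is held in check by Id2 and works with a small set of transcription factors, Spib, Runx2 and Bcl11a among them. In mice these cells carry little or no CD11b, so a CD11b sort is not designed to hold them. Siglech is a sialic acid-binding surface lectin, Ccr9 the receptor of the chemokine Ccl25, and Pacsin1 a membrane-bending adaptor protein. Spib, Bcl11a and Tcf4 are also made by B cells, and Runx2 by several other blood cells.

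The promoters of Siglech, Ccr9, Spib and Bcl11a are shown because these genes stood lower in every MI+RDN library than in any MI library, and because Tcf4, Spib and Runx2 are DNA-binding members of the same set. The sequences are RefSeq promoter stretches of build GRCm38.p6, cut to bases upstream of the start site that no annotated exon covers and read 5′ to 3′ on the strand of the gene. Capitals mark the E-box CANNTG, the kind of site that E proteins bind, and the RUNX core TGTGGT on either strand.
Siglech, chr7:55767934-55768177, plus strand: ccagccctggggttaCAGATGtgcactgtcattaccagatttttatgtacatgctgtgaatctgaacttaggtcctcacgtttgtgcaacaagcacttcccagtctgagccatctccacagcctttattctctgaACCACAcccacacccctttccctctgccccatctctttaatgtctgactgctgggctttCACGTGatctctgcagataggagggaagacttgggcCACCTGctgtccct
Ccr9, chr9:123766961-123767168, plus strand: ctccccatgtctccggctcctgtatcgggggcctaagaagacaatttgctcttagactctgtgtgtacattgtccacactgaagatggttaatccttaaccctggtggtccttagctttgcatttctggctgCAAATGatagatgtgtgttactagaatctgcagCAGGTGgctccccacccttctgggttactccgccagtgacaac
Spib, chr7:44532072-44532321, minus strand: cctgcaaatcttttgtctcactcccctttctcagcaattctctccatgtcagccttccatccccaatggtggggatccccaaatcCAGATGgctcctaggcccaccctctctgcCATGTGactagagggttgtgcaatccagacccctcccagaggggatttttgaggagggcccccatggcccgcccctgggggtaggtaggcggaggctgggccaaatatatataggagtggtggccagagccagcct
Bcl11a, chr11:24080445-24080669, plus strand: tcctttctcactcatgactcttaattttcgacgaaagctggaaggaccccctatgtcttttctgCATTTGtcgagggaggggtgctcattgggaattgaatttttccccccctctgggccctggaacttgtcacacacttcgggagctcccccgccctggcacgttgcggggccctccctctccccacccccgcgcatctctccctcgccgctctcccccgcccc

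The same table held full windows of 300 bases for 6 of the 7 genes. CANNTG stood 3 times in the Siglech window, in pairs in those of Ccr9, Spib and Runx2, 1 time in that of Bcl11a and 0 times in that of Pacsin1, and 72.3% of all 32851 windows held at least 1. The form CAGGTG or CACCTG, a subset of the E-box, was found in the Siglech and Ccr9 windows and in 20.2% of all windows. The ETS core AGGAAG, searched on both strands for Spib, was found in the Ccr9 and Runx2 windows and in 35.4% of all. TGTGGT was found in the Siglech, Pacsin1 and Runx2 windows, 3 times in the last of these, and in 16.8% of all.

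Levels split the 7 genes into a low and a high set. Siglech, Ccr9 and Pacsin1, the members that are most particular to plasmacytoid dendritic cells, averaged between 0.422 and 2.57 CPM (read counts scaled to library size with TMM factors). The 4 transcription factor genes averaged between 28.3 and 74.3 CPM. Per kilobase of the longest annotated transcript, Runx2 led in MI+RDN at 10.96 ± 0.987 CPM per kb, followed by Spib at 10.1 ± 2.60, Tcf4 at 7.30 ± 0.585 and Bcl11a at 5.55 ± 0.652 (SD, n = 3). In MI, Spib led at 21.99 ± 4.84 CPM per kb, followed by Bcl11a at 10.6 ± 1.63, Runx2 at 10.2 ± 1.57 and Tcf4 at 8.67 ± 0.289. Runx2 and Spib in MI+RDN, and Bcl11a and Runx2 in MI, differed by less than their SD. In both groups Siglech stood last, at 0.184 ± 0.0644 CPM per kb in MI+RDN and 0.434 ± 0.0392 in MI, next to Ccr9 at 0.228 ± 0.0205 and 0.452 ± 0.152.

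**Figure D1:**
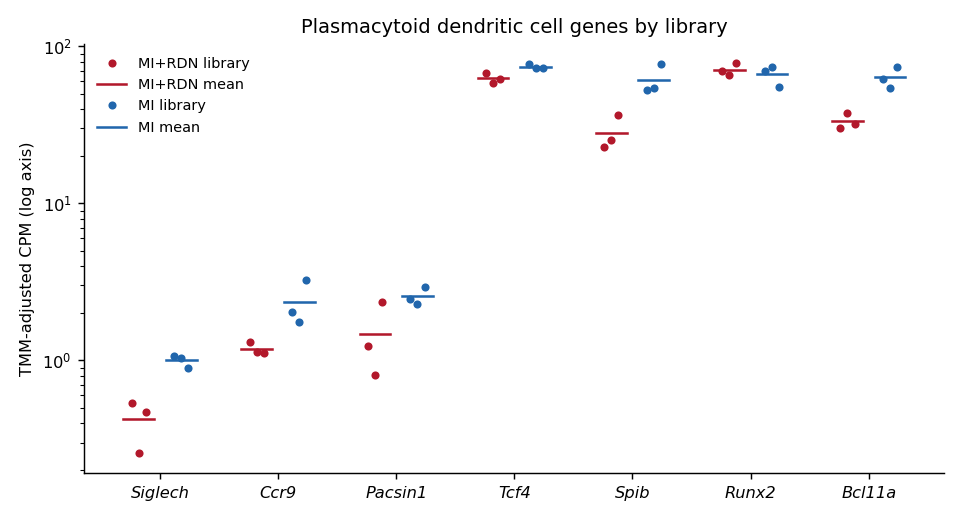
TMM-adjusted CPM of the 7 genes on a log axis, 1 point per library and a bar for the mean of each group, with MI+RDN in red left of MI in blue. Siglech, Ccr9, Tcf4, Spib and Bcl11a show no overlap between the groups, whereas Pacsin1 and Runx2 overlap.

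The levels of these 3 markers lay in the low part of the tested range, above the limit of 3 counts in every library. Siglech had a mean CPM above that of only 7.66% of tested genes, Ccr9 above 18.6% and Pacsin1 above 20.01%. Of 26 other genes known from mouse plasmacytoid dendritic cells, 6 did not pass the filter. Among these, Klk1b27 had 0 counts in all libraries, and Klk1, Cox6a2, Ptcra, Dntt and Sh3bgr reached at most 24 counts in any. Of the 20 tested, 14 had a mean of at least 5 CPM. Pld4, an endolysosomal exonuclease that other myeloid cells also make, was at 567 ± 31.7 CPM in MI+RDN and 604 ± 38.0 CPM in MI. Bst2, the antigen behind the PDCA-1 antibody that many activated cells also carry, stood at 40.3 ± 12.6 CPM in MI+RDN and 38.7 ± 4.84 CPM in MI. In such bulk libraries, fewer cells of a type and less RNA per cell cannot be told apart.

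Siglech had 14, 7 and 11 counts in the MI+RDN libraries, or 0.539, 0.256 and 0.473 CPM, against 25, 23 and 24 counts in the MI libraries, or 1.06, 1.04 and 0.897 CPM. Every MI+RDN library lay under every MI library. The fold change was 2.36-fold lower in MI+RDN (log2 fold change -1.24, 95% interval -2.17 to -0.31) and did not pass (edgeR adjusted p = 0.150). All adjusted p-values come from the quasi-likelihood test of edgeR, with Benjamini-Hochberg correction over the 14849 tested genes and a threshold of 0.05. The 3 MI+RDN libraries held 32 counts together (exact Poisson interval 21.9 to 45.2), and the 3 MI libraries held 72 (56.3 to 90.7), an interval that covers counting error only.

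Ccr9, which guides these cells and some T cells to the gut, stood at 1.31, 1.13 and 1.12 CPM in MI+RDN and 2.04, 1.76 and 3.25 CPM in MI. The groups did not overlap, and MI replicate 3 was the highest library. Its log2 fold change was -0.99 (95% interval -1.72 to -0.26) and did not pass (edgeR adjusted p = 0.146). Annotated exons of Ccr9 share 1932 of 10260 bases with an opposite-strand gene, AC165425.1, and the strand setting of the counting is not known. Pacsin1, which is needed for the interferon response of these cells to endosomal Toll-like receptors, stood at 1.23, 0.804 and 2.36 CPM in MI+RDN and 2.47, 2.30 and 2.95 CPM in MI. Here the groups overlapped, because MI+RDN replicate 3 stood near the MI libraries. The log2 fold change of Pacsin1 was -0.82 (95% interval -1.74 to 0.10) and did not pass (edgeR adjusted p = 0.300).

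Among the transcription factor genes, Bcl11a fell and was the only one of the 7 members past the threshold. It encodes a zinc finger repressor that lymphoid progenitors, B cells and plasmacytoid dendritic cells need. Bcl11a (ENSMUSG00000000861) had 30.02, 37.6 and 32.2 CPM in MI+RDN, against 62.02, 54.5 and 73.9 CPM in MI. The highest MI+RDN library lay well under the lowest MI library. It was 1.91-fold lower in MI+RDN, at 33.3 ± 3.90 CPM against 63.5 ± 9.76 CPM (SD, n = 3; log2 fold change -0.93, SE 0.138, edgeR adjusted p = 0.0401). Among all tested genes 0.714% were called lower and 1.01% in either direction, so 1 of 7 rests on a single gene, and Bcl11a stood 50th by p among the 150 genes called. Leaving out 1 library at a time, edgeR kept the call only without MI+RDN replicate 2 and lost it without each of the other 5 libraries. With a library left out, the log2 fold change of Bcl11a ranged from -1.05 to -0.81, and its edgeR adjusted p from 0.0468 to 0.131. The call was also lost with no filter on low counts and with replicate number as block (edgeR adjusted p = 0.0793 and 0.0647). Exons of Bcl11a share 316 of 13175 bases with an opposite-strand gene, 4930538E20Rik.

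Spib, an ETS factor close to Spi1 (PU.1) that is active in B cells and plasmacytoid dendritic cells, had a larger estimate but did not pass. Its levels were 23.0, 25.3 and 36.5 CPM in MI+RDN, against 52.9, 54.1 and 76.9 CPM in MI. The groups did not overlap, and within each of them replicate 3 stood highest. The log2 fold change was -1.12 (95% interval -1.61 to -0.63, edgeR adjusted p = 0.0539), or 2.17-fold lower in MI+RDN. The adjusted p of Spib passed in 5 of 16 alternative fits, and over all of them it lay between 3.96e-05 and 0.168.

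Tcf4, the E protein that sets the plasmacytoid fate, differed little. It had 68.01, 58.1 and 61.8 CPM in MI+RDN, against 77.2, 73.01 and 72.8 CPM in MI. The groups did not overlap, although the lowest MI library was close to the highest MI+RDN library. The log2 fold change was -0.25 (95% interval -0.45 to -0.04), which did not pass (edgeR adjusted p = 0.185), and a decrease as large as that of Bcl11a or Spib lies outside that interval.

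Runx2, which supports the exit of plasmacytoid dendritic cells from bone marrow and is best known from bone formation, was the one member with a positive estimate. It had 69.4, 65.3 and 77.8 CPM in MI+RDN, against 69.4, 74.4 and 54.8 CPM in MI, so the groups overlapped. Its log2 fold change was 0.10 (95% interval -0.20 to 0.40, edgeR adjusted p = 0.713), and it turned to -0.02 without MI replicate 3 and to -0.04 without scaling factors. Exons of Runx2 share 519 of 8837 bases with the opposite-strand gene Runx2os1.

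Over the 7 members, 1 was lower past the threshold, 0 were higher, against 0.296% of tested genes, and 6 did not pass. A negative log2 fold change was found in 6 of 7 members and in 49.0% of tested genes. The median log2 fold change was -0.93, against 0.0080 over all tested genes. In 5 of 7 members the MI+RDN libraries all lay under the MI libraries, as in 13.7% of tested genes. At an unadjusted p under 0.05 there were also 5, all lower in MI+RDN, as in 10.1% of tested genes. Without MI replicate 3 the median was -0.71.

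Of 22 tested relatives in the same gene families, 14 had a negative and 8 a positive log2 fold change. Spi1, the ETS factor of myeloid cells, stood at 772 ± 93.05 CPM in MI+RDN and 612 ± 57.6 CPM in MI (log2 fold change 0.33, edgeR adjusted p = 0.212). For every 100 counts of Spi1, Spib had 2.72, 3.79 and 4.54 counts in MI+RDN and 8.52, 8.13 and 13.9 in MI. This ratio needs no scaling factor. Its groups could not overlap, because every MI+RDN library lay under every MI library for Spib and above every MI library for Spi1. Spic, the ETS factor of red pulp macrophages, had a log2 fold change of -0.93 and did not pass (edgeR adjusted p = 0.108).

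Tcf3 and Tcf12, the other E protein genes, had log2 fold changes of -0.15 and -0.43, and neither passed (edgeR adjusted p = 0.409 and 0.0793). Id2, the inhibitor of E proteins, stood at 150.02 ± 28.6 CPM in MI+RDN and 136 ± 29.6 CPM in MI. For every 100 counts of Id2 there were 57.8, 33.7 and 38.6 of Tcf4 in MI+RDN and 51.1, 46.8 and 71.1 in MI, so that balance overlapped between the groups. Runx3, which lymphocytes and some dendritic cells use, fell to 36.8 ± 2.85 CPM in MI+RDN, against 56.3 ± 2.72 CPM in MI (log2 fold change -0.61, edgeR adjusted p = 0.0401). Runx1 did not pass, with a log2 fold change of -0.07 (edgeR adjusted p = 0.745). Neither did Bcl11b, the T cell counterpart of Bcl11a, which stood at 1.36 ± 0.279 CPM in MI+RDN and 2.73 ± 1.18 CPM in MI (edgeR adjusted p = 0.183).

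Pacsin2, the broadly used relative of Pacsin1, stood far above it at 145 ± 5.59 CPM in MI+RDN and 127 ± 14.4 CPM in MI, and Pacsin3 did not pass the filter. Siglecg, an inhibitory lectin of B cells, fell 1.71-fold to 54.2 ± 5.59 CPM in MI+RDN, against 92.4 ± 12.8 CPM in MI (edgeR adjusted p = 0.0439). Siglece, an inhibitory lectin of neutrophils and macrophages, had a log2 fold change of 0.58 and did not pass (edgeR adjusted p = 0.188). Among the relatives of the members, 2 were lower past the threshold, 0 were higher, and the median log2 fold change was -0.17. The DESeq2 Wald test called 7 of the 22 lower, whereas edgeR called 0 with no filter and 0 to 1 with a library left out. In the full set of libraries 11 relatives had an unadjusted p under 0.05, all lower except Siglece and Spi1, beside 2959 of 14849 tested genes. Without MI+RDN replicate 1 the median was -0.30.

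**Figure D2:**
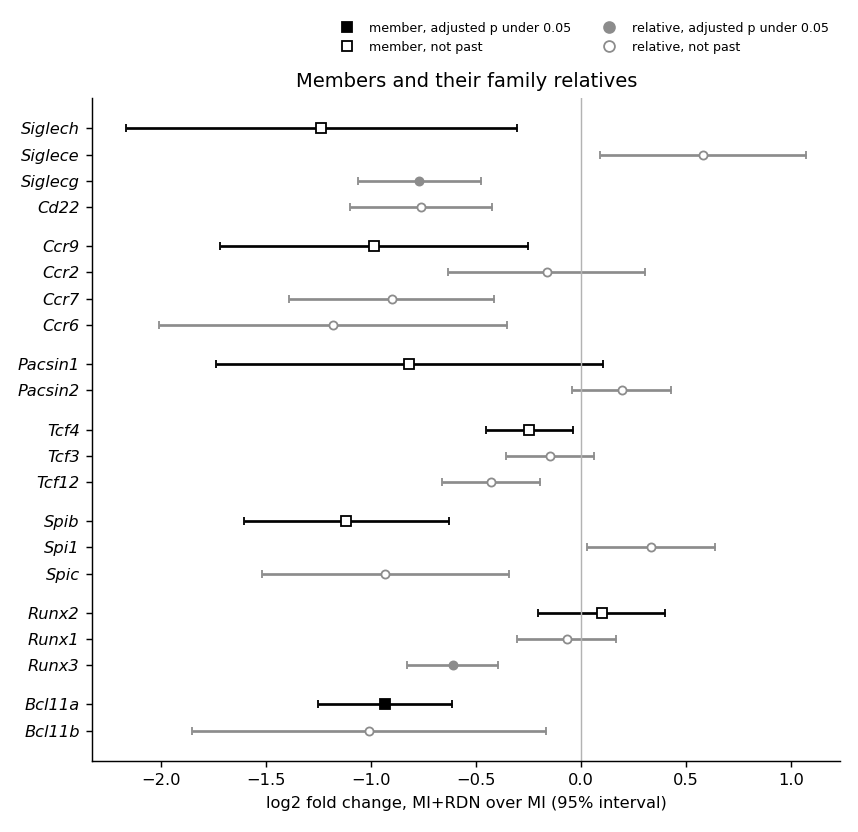
Log2 fold change of MI+RDN over MI with its 95% interval for the 7 members (black squares) and family relatives (grey circles), with filled symbols for genes past the threshold. Spib lies at -1.12 beside Spi1 at 0.33, and Runx2 at 0.10 beside Runx3 at -0.61.

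Of the 26 other plasmacytoid dendritic cell markers, 20 were tested, and 0 were lower, 1 was higher and 19 did not pass, with a median log2 fold change of -0.16. At an unadjusted p under 0.05 in edgeR there were 6 lower and 2 higher, and the DESeq2 Wald test called 2 lower and 1 higher. The median was not stable, at -0.52 without MI+RDN replicate 2 and -0.57 over 25 genes with no filter. The call of the higher gene was lost in edgeR with no filter and in each of the 6 fits without a library. The higher gene was Ly6c2, a surface antigen that plasmacytoid dendritic cells share with inflammatory monocytes, at 698 ± 73.9 CPM in MI+RDN and 369 ± 39.4 CPM in MI (edgeR adjusted p = 0.0364). Cd7, a surface protein of lymphoid and plasmacytoid cells, and Ptprs, a receptor phosphatase of plasmacytoid cells, came closest on the lower side. Cd7 stood at 17.1 ± 2.99 CPM in MI+RDN and 33.3 ± 6.02 CPM in MI (edgeR adjusted p = 0.0523). Ptprs stood at 20.1 ± 2.23 CPM in MI+RDN and 29.98 ± 0.701 CPM in MI (edgeR adjusted p = 0.0556). Ly6d and Cd300c had log2 fold changes of -0.67 and -0.74 and did not pass.

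Regulators of dendritic cell fate were lower in 3 of 24 tested genes, higher in 0, and had a median log2 fold change of -0.10, while the DESeq2 Wald test called 9 lower. In edgeR the count was 0 with no filter and with any 1 library left out. In the full set 11 of the 24 had an unadjusted p under 0.05, all lower except Spi1, beside 2959 of 14849 tested genes. The median was -0.05 without MI replicate 1. Cbfa2t3, the corepressor Mtg16 that assists Tcf4, fell 1.54-fold to 89.7 ± 3.94 CPM in MI+RDN, against 138 ± 11.3 CPM in MI (edgeR adjusted p = 0.0401). The other genes past the threshold were Mycl and Zbtb46, the latter a factor of conventional dendritic cells. Mycl was 3.07-fold lower in MI+RDN, at 5.44 ± 1.19 CPM against 16.7 ± 5.16 CPM, and Zbtb46 was 2.22-fold lower (edgeR adjusted p = 0.0433 and 0.0401). Irf8, which both kinds of dendritic cell need, stood at 148 ± 4.87 CPM in MI+RDN and 201 ± 23.8 CPM in MI and did not pass (edgeR adjusted p = 0.0783).

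In the endosomal sensing pathway that Pacsin1 serves, Tlr9 was the only one of 25 tested genes past the threshold, and the median log2 fold change was -0.07. Tlr9, the receptor of unmethylated DNA, had 36.1, 32.6 and 37.1 CPM in MI+RDN, against 53.1, 52.1 and 52.5 CPM in MI, and fell 1.49-fold (edgeR adjusted p = 0.0401). The list had 0 genes past the threshold in edgeR with no filter and with any 1 library left out. The DESeq2 Wald test called 1 lower and 1 higher. In the full set 4 had an unadjusted p under 0.05, beside 2959 of all 14849 tested genes. Among the 4 in the list, Tlr9 and Slc15a4 were lower, and Myd88 and Plscr1 were higher. Tlr7, the receptor of single-stranded RNA, stood at 194 ± 17.9 CPM in MI+RDN and 203 ± 11.8 CPM in MI (log2 fold change -0.07, edgeR adjusted p = 0.745). Irf7, the interferon regulator at the end of the pathway, ran from 280.4 to 586 CPM in MI+RDN and from 231 to 385 CPM in MI, with overlap.

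Markers of other cell types moved beside the members. Of 21 tested B cell markers, 1 was lower past the threshold, 0 were higher and 20 did not pass, with a median log2 fold change of -0.89, and none of them was at 0. The DESeq2 Wald test called 16 lower and 1 higher. In edgeR the count was 0 with no filter, 5 without MI+RDN replicate 3 and 0 without each of the other 5 libraries. In the full set 18 had an unadjusted p under 0.05, all lower except Cd37, beside 2959 of 14849 tested genes. Their summed level without the immunoglobulin gene Ighm ran from 781 to 1124 CPM in MI+RDN and from 1180 to 1523 CPM in MI. With Ighm it ran from 5807 to 12394 CPM in MI+RDN and from 4896 to 8780 CPM in MI. The gene past the threshold was Tnfrsf13c, the BAFF receptor, while Cd79a and Ms4a1 had log2 fold changes of -0.85 and -1.05 and did not pass. T cell markers were lower in 1 of 19 (Cd3d), with a median of -1.01 and a summed level of 57.7 to 93.6 CPM in MI+RDN and 125 to 175 CPM in MI. The DESeq2 Wald test called 9, while the count was 0 with limma-voom. It was also 0 in edgeR with no filter and with any 1 library left out. In the full set 17 T cell markers had an unadjusted p under 0.05, all lower. Genes listed for CD11b+ conventional dendritic cells were lower in 7 of 15, led by Cd4, Ciita, H2-Eb1 and Zbtb46, with a median of -0.97. Zbtb46 is also counted among the regulators of dendritic cell fate, and which cells these transcripts came from was not tested. The summed level of the list was 3186 to 3677 CPM in MI+RDN and 4433 to 5335 CPM in MI. The count for this list was 2 with no filter and 0 to 2 with any 1 library left out, and the median was -0.56 without MI replicate 3.

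**Figure D3:**
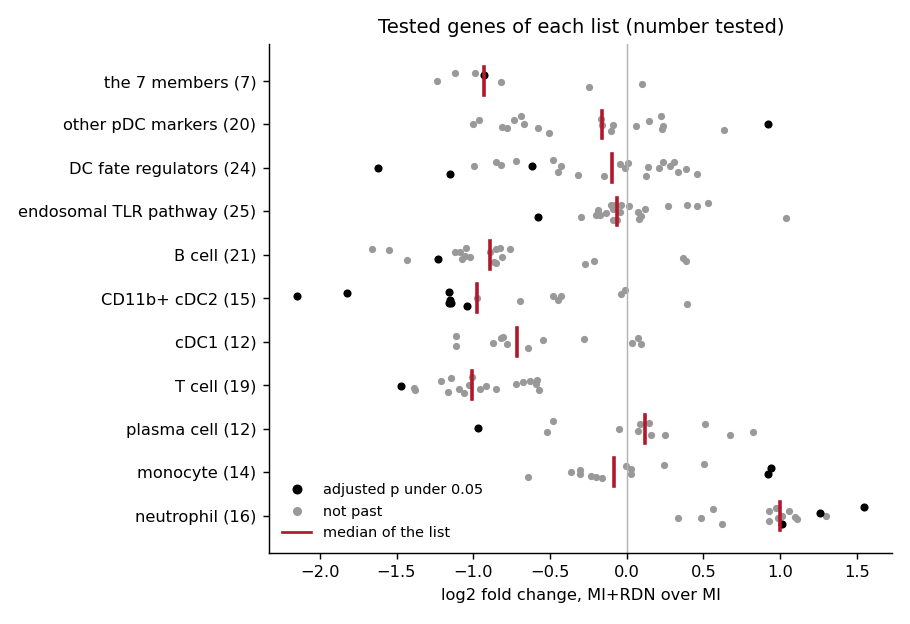
Log2 fold change of MI+RDN over MI for each tested gene of the lists, with the number tested in brackets, black points for genes past the threshold and a red bar for the median. The medians of the 7 members (-0.93), B cell markers (-0.89), T cell markers (-1.01) and CD11b+ conventional dendritic cell markers (-0.97) lie near each other. The last of these is -0.56 without MI replicate 3. The median of conventional DC1 (cDC1) markers is -0.71. That of the other plasmacytoid dendritic cell (pDC) markers is -0.16 (-0.52 without MI+RDN replicate 2, -0.57 with no filter).

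Set against the B cell gene Cd79a, a signalling chain of the B cell receptor, 6 of the members overlapped between the groups. For every 100 counts of Cd79a, Bcl11a had 53.1, 68.1 and 34.1 counts in MI+RDN and 53.5, 53.6 and 48.04 in MI, with means of 51.8 and 51.7. Ccr9 and Pacsin1 had means of 1.85 and 2.05 counts in MI+RDN and 1.87 and 2.10 in MI. Siglech averaged 0.639 in MI+RDN and 0.841 in MI. Spib had 40.6, 45.8 and 38.8 counts in MI+RDN and 45.7, 53.2 and 49.99 in MI, with MI+RDN replicate 2 just above the lowest MI library. Tcf4 had 120.2, 105 and 65.6 counts in MI+RDN and 66.6, 71.8 and 47.3 in MI. Runx2 alone lay higher in every MI+RDN library, at 123, 118 and 82.6 counts against 59.9, 73.1 and 35.7 in MI. The part that B cells, T cells or conventional dendritic cells had in the members' differences was not tested.

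**Figure D4:**
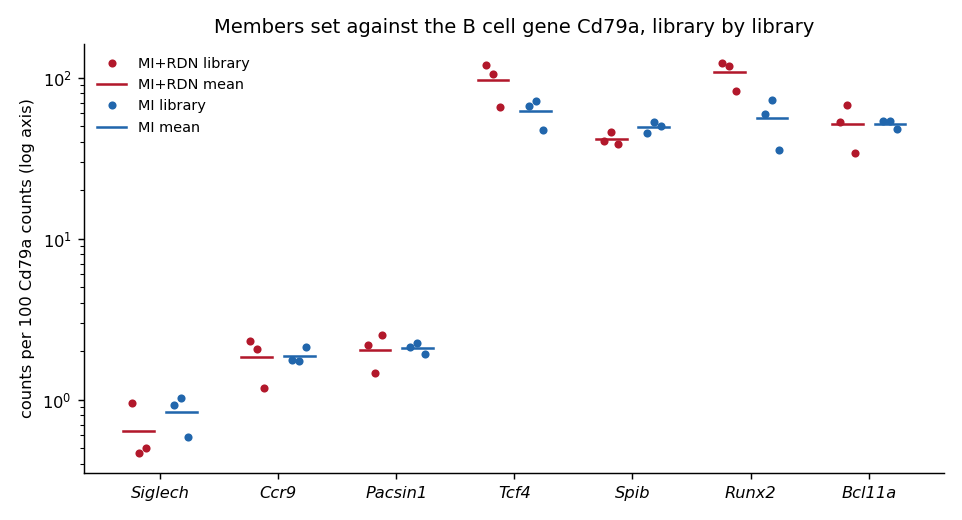
Counts of each member for every 100 counts of Cd79a in the same library, on a log axis, with MI+RDN in red left of MI in blue and a bar for each group mean. Bcl11a has nearly equal means of 51.8 in MI+RDN and 51.7 in MI, whereas the Runx2 libraries stand higher in MI+RDN.

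The members also varied among themselves across the 6 libraries. Their mean level on the log2 scale, centred over all libraries, was -0.36, -0.57 and -0.17 in MI+RDN replicates 1 to 3 and 0.34, 0.27 and 0.49 in MI replicates 1 to 3. The B cell list stood at -0.71, -0.64 and 0.04 in MI+RDN and 0.39, 0.22 and 0.70 in MI, with replicate 3 highest within each group for both. Likeness was measured as the root-mean-square difference between centred log2 profiles over these 6 libraries, where a small value means a like profile. Bcl11a was nearest to Ccr9 among the members, at 0.204, with 1.11% of tested genes nearer to it than Ccr9. The member nearest to Tcf4 was Runx2, at 0.235, but 40.2% of tested genes were nearer to Tcf4 than Runx2 was. Siglech and Pacsin1 differed by 0.379. The nearest member to Spib was Bcl11a, at 0.262, and the mean profile of the 21 tested B cell markers lay at 0.150 from Spib. A mean over many genes carries less noise than a single gene. Its distances are thus not comparable with those between single genes. The distance to that B cell profile was 0.243 for Pacsin1, 0.273 for Bcl11a, 0.312 for Ccr9, 0.396 for Siglech, 0.434 for Tcf4 and 0.587 for Runx2. The share of tested genes nearer to the member than that profile was 0.162% for Spib, 0.202% for Pacsin1 and 2.63% for Siglech. It was 3.64% for Bcl11a, 3.71% for Ccr9, 76.4% for Tcf4 and 86.8% for Runx2. These shares set a mean profile against single genes, so a low share does not show a likeness particular to B cells. Distances to the mean profiles of other cell types were not computed.

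Among tested genes with a mean of at least 5 CPM, H2-Ob was nearest to Spib, at 0.0821, and Ebf1 followed among the 3 nearest, at 0.0952. Those nearest to Bcl11a were Tsc22d1, Scn2b and Klrd1, at 0.0529 to 0.0861. For Tcf4 they were Med1, Irak2 and Pspc1, the first at 0.0103, and for Runx2 they were Clec4n, Znfx1 and Batf, the first at 0.0408. The low members had more distant neighbours, Snx29, Carmil1 and Dst for Siglech from 0.145, Gimap7, Sall2 and Nrip1 for Ccr9 from 0.0842, and Lynx1, Pax5 and Blnk for Pacsin1 from 0.179.

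Across the series, 150 of 14849 genes passed, 106 lower and 44 higher in MI+RDN, and 2959 had an unadjusted p under 0.05 in either direction. Itgam, the gene of the sort marker, had a log2 fold change of 0.50 and did not pass (edgeR adjusted p = 0.109). Neutrophil markers were higher in 3 of 16 (Asprv1, Retnlg and Ly6g) and monocyte markers in 2 of 14 (Ly6c1 and Ly6c2), with medians of 1.0 and -0.09. In the main fit 10 neutrophil and 4 monocyte markers had an unadjusted p under 0.05, in either direction. Both counts past the threshold were 0 in edgeR with no filter. With a library left out they were 0 except without MI+RDN replicate 2, where they were 3 and 1. Plasma cell markers were lower in 1 of 12 (Slamf7), and the transitional dendritic cell list had 1 higher (Ly6c2) and 1 lower (Cd209a) of 10, and these calls too were lost in edgeR with no filter and with any 1 library left out. Conventional DC1, macrophage and NK cell markers had 0 past the threshold in edgeR among 12, 17 and 12 genes, with medians of -0.71, -0.61 and -0.21. At an unadjusted p under 0.05, in either direction, there were 8, 8 and 3, beside the 2959 of 14849 over all genes. The DESeq2 Wald test called 3, 6 and 2 lower. The lowest p among them belonged to Gcsam, Mrc1 and Klrd1, with log2 fold changes of -0.87, -1.39 and -0.77.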

How the data were processed

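The authors deposited a single table of raw whole-number counts, Ensembl genes by libraries, per the file headers. RNA was purified with a Qiagen kit and made into TruSeq libraries that keep strand, per the labels' protocols. The submitters' processing notes name FastQC 0.11.2, STAR and GRCm39; how reads were counted (tool, annotation release, strand, multi-mapping) is not given in the sources used here.

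Symbols were matched by Ensembl ID for 55154 of 55335 genes, and transcript lengths and exons came from an annotation of GRCm38, used for names, lengths and sequence only. The deposited counts went into edgeR 4.0.16 under R 4.3.3 (filterByExpr, TMM factors, quasi-likelihood F test, no covariates) on all 6 libraries, with Benjamini-Hochberg adjustment over all tested genes at 0.05. Every fold change divides MI+RDN by MI and has a 95% interval from the fit. The common coefficient of biological variation was 20.7%. P-values measure only how these 6 libraries vary, which may be technical in part. Likeness was taken on log2 CPM (prior count 2). The procedure was tested on simulated data.

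The members and lists were chosen with earlier results of these data known. Named genes are the members, Itgam, a set of regulators and relatives, up to 4 called members of each list (or the 2 lowest by p) and the 3 nearest genes of each member; the other list genes and relatives given were chosen after their values were seen. Some genes that this rule names are not reported here. Alternatives were size factors of DESeq2, upper-quartile factors or none, no filter, a mean of at least 5 CPM, the Wald test of DESeq2 1.42.0, limma-voom (limma 3.58.1), edgeR with robust dispersions, replicate number as block, a table without mitochondrial, haemoglobin and antigen receptor genes, and leaving out each library. Figures were drawn with matplotlib 3.10.9.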

Additional observations from a re-analysis of the deposited data

How the results depend on the processing

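The 6 members other than Runx2 kept their direction in every alternative fitted. Runx2 turned to -0.036 on the log2 scale without scaling factors, where the median of all genes was -0.13, and with a library left out it ran from -0.022 (without MI replicate 3) to 0.19 (without MI replicate 2). Members past the threshold were 1, and 2 without scaling factors, at a mean of 5 CPM, with the DESeq2 Wald test and without mitochondrial, haemoglobin and antigen receptor genes, where Spib joined Bcl11a. They were 0 with no filter in edgeR, with 5 of 7 at an unadjusted p under 0.05. With a library left out they were 0 to 1, with 4 to 6 at that p and 1 only without MI+RDN replicate 2. The 150 genes past the threshold became 475 without scaling factors, 21 with no filter, 290 at a mean of 5 CPM, 1165 with the DESeq2 Wald test, 277 with robust edgeR, 277 without mitochondrial, haemoglobin and antigen receptor genes, and 0 to 67 with a library left out, with 0 in edgeR without MI+RDN replicate 1 and without MI replicate 3 (2323 and 2084 at an unadjusted p under 0.05). The cause was not tested. With the replicate block 87 genes passed, and the count of members stayed at 1, with Spib (adjusted p = 0.0381) in the place of Bcl11a (0.0647). With that block 0 of 22 relatives, 0 of 19 T cell markers, 2 of 24 regulators and 12 of 21 B cell markers were lower, and the endosomal sensing list had 0 lower and 1 higher. The labels do not say whether the numbers pair the libraries. Same-numbered deviations correlated at 0.018, -0.065 and 0.064. MI+RDN replicates 1 and 2 correlated best with another number, and MI+RDN replicate 3 with its own. These deviations were taken from means of 3 libraries per group, so the correlations cannot decide on pairing. Siglech had no adjusted p in DESeq2, and Siglech, Ccr9 and Pacsin1 drop out at a mean of 5 CPM, which moves the members' median to -0.62. Siglech rests on 7 to 25 counts per library, which limits its precision.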

Other observations

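Type I and III interferon genes, the product for which plasmacytoid dendritic cells are known, were at or near the limit of detection at this depth. Of 20 such genes, 18 had 0 counts in all 6 libraries, including Ifnb1, and a count of 0 allows up to 3 counts, or 0.110 to 0.129 CPM in MI+RDN and 0.112 to 0.135 CPM in MI. Ifnab had 4, 3 and 4 counts in MI+RDN and 0 in each MI library, which is too few to test, and it was named after its values were seen.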
